A study of Homo sapiens with 9 samples.

Results

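Interferon-induced genes, which cells transcribe when interferon or viral nucleic acid is sensed, were followed in HaCaT keratinocytes that accumulate actin in the nucleus. The members were 50 genes given by name as known targets of interferon. Of these, 49 were measured, among 19775 genes on the arrays, and 1 of the 50 listed genes had no listed probe set in the annotation used and was not analysed here.

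The study compared 3 lines on 9 expression arrays, 3 arrays per line. Parental HaCaT cells, a spontaneously immortalized human skin keratinocyte line, carried no construct. WT-actin cells were HaCaT cells stably expressing β-actin fused to EGFP, and NLS-actin cells stably expressed the same fusion with a nuclear localization sequence, which drives actin into the nucleus. No treatment with interferon or virus is described. Both constructs were introduced by lipid transfection of linearized plasmid, followed by G418 selection of GFP-positive populations, and the parental cells carried neither. Each construct was represented by 1 stable line, so that the construct and the history of the line cannot be told apart. The methods describe the arrays of a line as experimental replicates. Whether they came from separate cultures is not stated, and p-values then measure only the spread between these arrays, which may be technical.

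Type I and type III interferons bind cell surface receptors that activate the kinases JAK1 and TYK2. These phosphorylate STAT proteins, which join IRF9 and bind the interferon-stimulated response element in the promoters of induced genes. Interferon gamma acts through its own receptor and STAT homodimers that bind gamma-activated sites, and IRF1 carries part of that response. Keratinocytes are known to hold a low level of this program without infection and to raise it in inflamed or virus-infected skin. The products restrict viral RNA, tag proteins with ISG15, load peptides for T cells and attract leukocytes.

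Promoters are shown for 5 members whose windows hold the motif described below, to place the response elements the family is known for. RefSeq windows (GRCh38.p14, 250 bases before to 50 bases after a transcription start) were found for 40 members, and 12 of these had several windows. The sequences run 5′ to 3′ on the strand of the gene, and capitals mark a pair of GAAA repeats separated by any 2 bases, read on both strands, so that TTTC repeats are the same motif on the opposite strand. The windows are chr1:1013247-1013546 (+) for ISG15, chr1:78649539-78649838 (+) for IFI44, chr14:94110486-94110785 (+) for IFI27, chr4:88456869-88457168 (+) for HERC5 and chr4:76023448-76023747 (-) for CXCL10.
ISG15: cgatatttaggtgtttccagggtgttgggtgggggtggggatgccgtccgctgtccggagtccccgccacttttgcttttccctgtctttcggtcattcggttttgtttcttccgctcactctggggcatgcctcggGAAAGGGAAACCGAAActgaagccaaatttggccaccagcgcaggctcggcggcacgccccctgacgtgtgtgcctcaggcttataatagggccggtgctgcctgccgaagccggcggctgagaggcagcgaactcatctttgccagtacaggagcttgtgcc
IFI44: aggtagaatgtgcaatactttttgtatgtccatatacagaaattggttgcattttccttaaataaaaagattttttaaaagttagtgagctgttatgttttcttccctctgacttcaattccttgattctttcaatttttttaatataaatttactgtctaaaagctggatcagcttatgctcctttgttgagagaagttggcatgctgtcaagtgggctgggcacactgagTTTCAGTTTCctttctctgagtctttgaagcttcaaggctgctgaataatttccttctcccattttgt
IFI27: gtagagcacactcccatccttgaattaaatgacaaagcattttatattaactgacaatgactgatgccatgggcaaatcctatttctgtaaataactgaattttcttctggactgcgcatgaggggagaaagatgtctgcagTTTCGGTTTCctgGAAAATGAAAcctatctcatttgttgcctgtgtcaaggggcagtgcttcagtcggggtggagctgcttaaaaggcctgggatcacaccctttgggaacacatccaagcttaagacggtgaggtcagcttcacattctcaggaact
HERC5: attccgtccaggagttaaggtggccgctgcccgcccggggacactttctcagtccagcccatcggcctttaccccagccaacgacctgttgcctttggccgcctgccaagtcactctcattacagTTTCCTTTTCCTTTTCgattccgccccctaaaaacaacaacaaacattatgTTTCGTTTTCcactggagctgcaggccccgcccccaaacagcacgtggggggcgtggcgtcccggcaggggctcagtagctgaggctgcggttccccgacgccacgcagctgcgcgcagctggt
CXCL10: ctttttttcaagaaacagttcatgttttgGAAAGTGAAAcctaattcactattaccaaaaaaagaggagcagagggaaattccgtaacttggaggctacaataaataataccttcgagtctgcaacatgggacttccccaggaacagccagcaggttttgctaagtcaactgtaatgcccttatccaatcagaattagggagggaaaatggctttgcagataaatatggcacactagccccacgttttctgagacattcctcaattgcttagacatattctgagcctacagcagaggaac

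In ISG15 the motif occurred at 113 and 107 bases upstream of the start, the copies sharing a repeat. In the windows shown, IFI44 held 1 copy 18 bases upstream and CXCL10 held 1 copy 221 bases upstream. HERC5 held 3 copies, 125, 119 and 74 bases upstream, the first pair overlapping. IFI27 held the motif at 108 and 95 bases upstream, and a TTCNNNGAA match, the core letters of a gamma-activated site, lay between and over them at 101 bases upstream. From the start of another window, the copies lay 60 bases upstream for IFI44, and 187 and 174 bases upstream for IFI27. Among members not shown, IRF1 and SAMD9L held no GAAA pair in their windows. MX1 had 3 windows, with the pair 11 bases downstream of 1 start, 196 bases upstream of another and absent from the remaining window. The GAAA pair was present in 28 of the 40 members (70.0%), against 3.98% of the 15384 array genes with a window and 3.57% of all 35116 windows. TTCNNNGAA was present in 15 of the 40 members (37.5%), against 8.97% of array genes and 7.66% of all windows. The median log2 difference between NLS-actin and parental cells was -0.46 for the 28 members with the GAAA pair and -0.31 for the 12 without it. These medians were -0.28 and -0.23 in WT-actin against parental cells, and -0.20 and 0.04 in NLS-actin against WT-actin cells. Whether the medians differ was not tested. Repeats at another spacing, as in the window of OAS1, were not counted. A match is a description of letters in a window and not a measured binding site.

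Signals are MAS5 intensities, linear values with a trimmed mean per array between 500.04 and 500.06. Each gene was read from its brightest probe set, compared as log2 with limma, and called at an adjusted p under 0.05 over all 19775 genes. Of the 49 members, 40 lay above the median level of all genes. As a check of the cell type, all 7 keratinocyte markers with a probe set lay above that median, while 0 of 7 leukocyte and 0 of 4 endothelial markers, 1 of 7 fibroblast markers and 1 of 4 melanocyte markers did. The summed signal of the leukocyte markers was 113 to 219 in parental cells, 72.7 to 114 in WT-actin cells and 130 to 243 in NLS-actin cells. The highest ratio of 3′ to 5′ signal for the ACTB control probe sets within each line was on parental 2, WT-actin 1 and NLS-actin 2. It was 7.96, 14.9 and 12.8 there, against 3.82 to 7.98 on the other 6 arrays. Parental 2 thus lay within the range of those 6. The ratio of the GAPDH control did not follow: it was the lowest of its line on parental 2 (1.40 against 1.41 and 1.60) and NLS-actin 2 (1.64 against 1.69 and 1.95), and the highest on WT-actin 1 (3.07 against 1.39 and 1.52). In these bulk samples fewer expressing cells and less RNA per cell cannot be told apart.

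NLS-actin cells had lower signals than parental cells for most of the interferon-induced genes, but no member passed the test in the comparison without pairing. The difference was negative in 39 of 49 members, against 50.6% of all genes, and the median was -0.39 on the log2 scale, against -0.01 over all genes. Without parental 2 the median of the members was -0.19. At an adjusted p under 0.05 limma called 0 members, where 0.126% of all genes were called, and Tukey's test also called 0 after adjustment. At an unadjusted p under 0.05, 9 members were lower (IRF1, USP18, MX1, MX2, ISG15, HERC5, CXCL10, IFI44 and EPSTI1) and 0 were higher, where 3.98% of all genes were lower and 2.45% higher. In 12 members every NLS-actin array lay below every parental array, which held for 7.49% of all genes, and in 0 members every NLS-actin array lay above, which held for 6.44%. When the arrays of these lines were matched by number, in a fit with a term for each number (called the block below), 8 members fell at an adjusted p under 0.05 and 0 rose, where 1.2% of all genes fell. These were IRF1, MX1, MX2, ISG15, HERC5, IFI44, IFI27 and SAMD9L. The block rests on a correlation between same-numbered arrays, seen in these same data, that is clear only for replicates 2. Exchanging numbers 1 and 3 in the NLS-actin line gave 10 called members, among them the same 8, where 1.67% of all genes fell. The exchange left replicates 2 matched, so the recurrence of the 8 is not independent of the first pairing. With the number as a term over all 9 arrays, WT-actin included, 0 members were called and 13 were lower at an unadjusted p under 0.05.

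**Figure D1:**
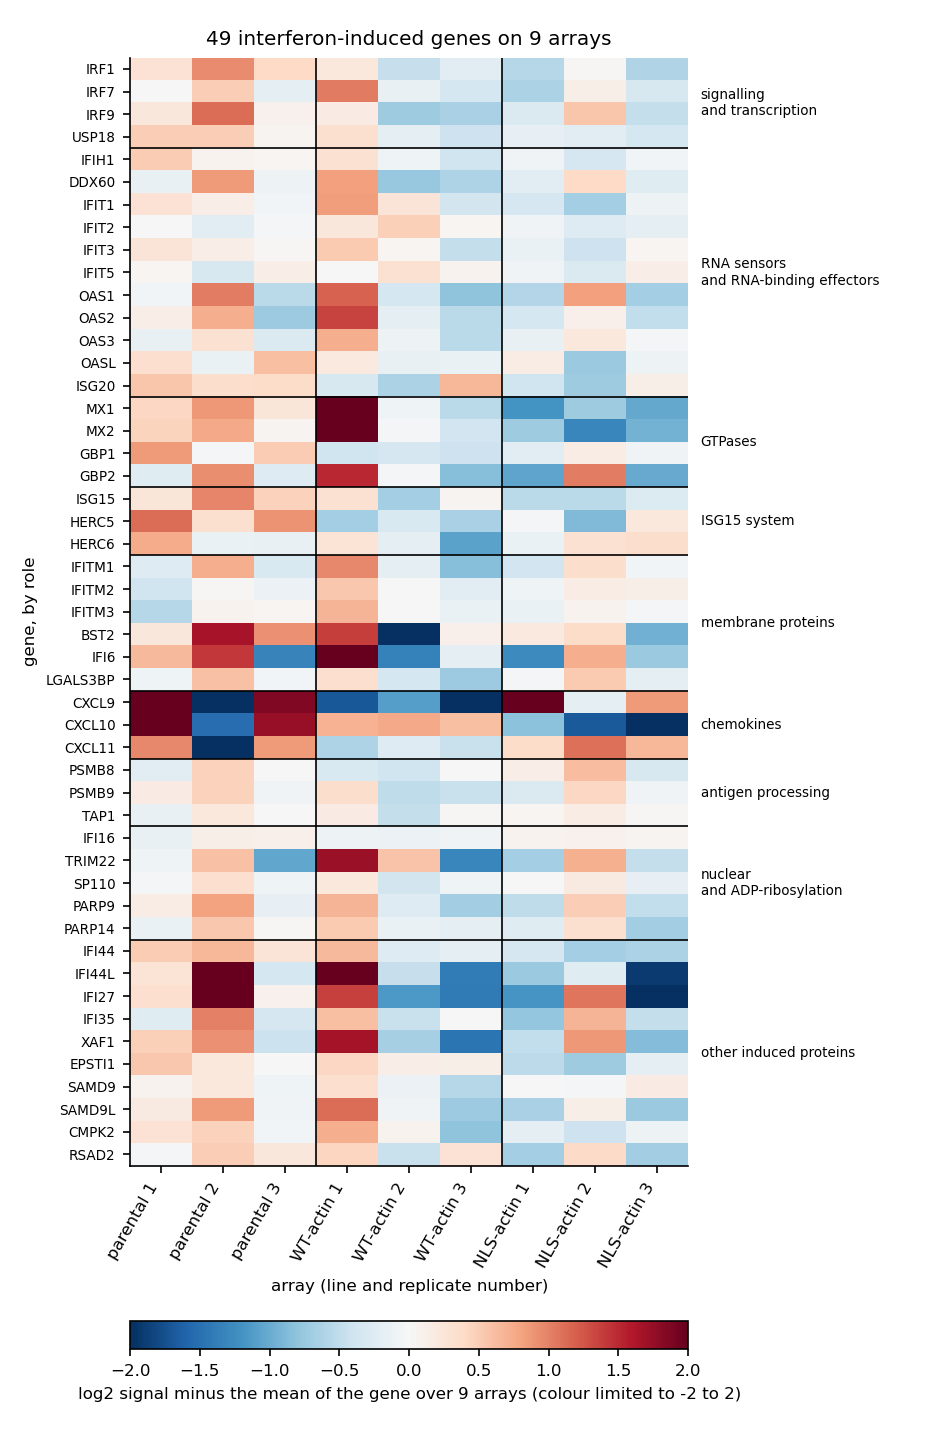
Heat map of the 49 measured genes (rows, grouped by role) on the 9 arrays (columns), as log2 signal minus the mean of the gene over all arrays, with the colour limited to -2 to 2. Red cells gather on WT-actin 1, parental 2 and, for part of the genes, NLS-actin 2, and the MX1, MX2, IFI44 and ISG15 rows are blue on all 3 NLS-actin arrays.

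Among the signalling genes and transcription factors, all 4 measured members had a negative difference between NLS-actin and parental cells, with a median of -0.57. IRF1, a transcription factor of the interferon gamma response, had signals of 427, 674 and 461 on parental arrays 1 to 3, 404, 254 and 305 on the WT-actin arrays and 236, 358 and 231 on the NLS-actin arrays. All 3 NLS-actin arrays and all 3 WT-actin arrays lay below the lowest parental array. The log2 difference of IRF1 between NLS-actin and parental cells was -0.92 ± 0.27 (SE, n = 3 against 3; limma adjusted p = 0.390, and 0.0162 with the block). The other IRF1 probe set, of similar brightness, gave -0.52.

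IRF9, the DNA-binding subunit of the factor activated by type I interferon, read 653, 1214 and 592 in parental cells, 628, 342 and 356 in WT-actin cells and 458, 822 and 401 in NLS-actin cells. The replicate 2 arrays were the highest of both the parental and the NLS-actin line, and the lines overlapped. The log2 difference between NLS-actin and parental cells was -0.55 ± 0.35 (adjusted p = 0.849). USP18, the protease that removes ISG15 and dampens receptor signalling, read 398, 400 and 295 in parental cells and 253, 242 and 224 in NLS-actin cells, which did not overlap (-0.59 ± 0.25, adjusted p = 0.713). The WT-actin arrays read 355, 250 and 214, a range that held the NLS-actin arrays of USP18. For IRF7, the factor that amplifies interferon production, the difference was -0.39 ± 0.34.

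Read from the brightest probe sets, the 11 RNA sensors and RNA-binding effectors differed less, with a median log2 difference of -0.29 between NLS-actin and parental cells. The difference was negative in 10 of 11. Arrays of the lines did not overlap for IFIH1, a sensor of long double-stranded RNA, for IFIT1, which binds RNA with an unmethylated cap, or for ISG20, an exonuclease. IFIT1 read 2732, 2438 and 2135 in parental cells, 3986, 2666 and 1721 in WT-actin cells and 1767, 1392 and 2081 in NLS-actin cells. The NLS-actin arrays of IFIT1 lay below the lowest parental array, the highest of them narrowly, and WT-actin 1 was the highest of all 9. The log2 difference was -0.49 ± 0.26 between NLS-actin and parental cells (adjusted p = 0.817), and those of IFIH1 and ISG20 were -0.36 ± 0.20 and -0.76 ± 0.37. DDX60, a helicase that aids RNA sensing, differed by -0.21 ± 0.38.

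The oligoadenylate synthetases, which make the second messenger that activates RNase L, followed the arrays more than the lines. OAS1 read 1492, 3141 and 1062 in parental cells, 3518, 1210 and 891 in WT-actin cells and 1029, 2734 and 967 in NLS-actin cells. The highest array of each line exceeded the lowest 2.96-fold, 3.95-fold and 2.83-fold, and the lines overlapped throughout. The log2 difference of OAS1 between NLS-actin and parental cells was -0.29 ± 0.54, that of OAS2 -0.29 ± 0.46 and that of OAS3 0.05 ± 0.27. Another OAS2 probe set of similar brightness gave -0.61, and dimmer ones gave -1.16 for OAS2, -0.02 for OAS1 and -0.24 for OAS3. OASL, a catalytically inactive relative, had a difference of -0.50 ± 0.24, with its lowest signal, 1489, on NLS-actin 2. IFIT2, IFIT3 and IFIT5, neighbours of IFIT1 on chromosome 10, had differences of -0.09 ± 0.14, -0.31 ± 0.22 and -0.03 ± 0.17. Dimmer probe sets of IFIT2 and IFIT3 gave -0.89 and -0.85, and one of IFIT5 of similar brightness gave -0.24.

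The GTPases gave the second lowest median of the 9 groups, -0.95, with all 4 members negative in NLS-actin against parental cells. MX1, a dynamin-like GTPase that traps incoming viral nucleoproteins, read 803, 1098 and 717 in parental cells, 2480, 571 and 416 in WT-actin cells and 264, 370 and 296 in NLS-actin cells. Every NLS-actin array lay below every array of both other lines, and WT-actin 1 stood 5.97-fold above WT-actin 3. The log2 difference of MX1 was -1.48 ± 0.50 against parental cells (adjusted p = 0.530, and 0.000343 with the block). Without WT-actin 1, which enters this comparison only through the common variance, the adjusted p of MX1 was 0.0470.

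MX2, the nuclear-envelope relative of MX1 on chromosome 21, read 157, 194 and 119 in parental cells, 497, 114 and 88.5 in WT-actin cells and 70.3, 46.8 and 59.6 in NLS-actin cells. As for MX1, the NLS-actin arrays were below all others and WT-actin 1 was the highest. The log2 difference against parental cells was -1.40 ± 0.54 (adjusted p = 0.658, and 0.0481 with the block). The guanylate-binding proteins, which attack pathogen-containing vacuoles, overlapped between NLS-actin and parental cells (GBP1 -0.49 ± 0.33, GBP2 -0.49 ± 0.65).

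In the ISG15 system, 2 of the 3 members had a negative difference. ISG15, a ubiquitin-like protein conjugated to new proteins, read 930, 1551 and 1083 in parental cells, 971, 492 and 822 in WT-actin cells and 545, 542 and 655 in NLS-actin cells. The NLS-actin arrays lay below every parental array and within the range of the WT-actin arrays. The log2 difference against parental cells was -1.0 ± 0.26 (adjusted p = 0.289, and 0.00736 with the block). HERC5, the main ligase for ISG15, read 364, 210 and 314 in parental cells, 105, 136 and 107 in WT-actin cells and 165, 91.0 and 194 in NLS-actin cells. Both actin lines lay below every parental array, and the lowest array of the parental and of the NLS-actin line was replicate 2. The difference of HERC5 was -1.01 ± 0.34 (adjusted p = 0.517, and 0.0385 with the block). Its relative HERC6 had a difference of 0.03 ± 0.33.

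The membrane proteins had a median difference of -0.07, with 4 of 6 negative and no member lower at an unadjusted p under 0.05. IFITM1, IFITM2 and IFITM3, which block the fusion of virus with the cell, were bright and had differences of -0.09 ± 0.40, 0.22 ± 0.19 and 0.12 ± 0.22. BST2, a tether that holds virions at the surface, and IFI6, a protein of mitochondria and endoplasmic reticulum, were below the median level, varied 38.5-fold and 10.96-fold between WT-actin arrays, and differed by -1.06 ± 1.15 and -0.67 ± 0.94. LGALS3BP, a secreted glycoprotein, differed by -0.05 ± 0.28.

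The chemokines CXCL9, CXCL10 and CXCL11, ligands of the chemokine receptor CXCR3 on T cells, were all below the median level. CXCL10 read 102, 5.43 and 52.1 in parental cells, 25.3, 26.3 and 23.8 in WT-actin cells and 8.88, 4.87 and 2.80 in NLS-actin cells. Parental 2 lay among the NLS-actin arrays, so that the lines overlapped, while the WT-actin arrays lay close together. The log2 difference was -2.63 ± 0.95 against parental cells, the largest of the 49 in size, with an adjusted p of 0.609 (0.193 with the block), and -1.74 with an offset of 8.08 added to every signal. On 3 of the 9 arrays the signal lay below 8.08, the lower quartile of all signals. CXCL9 and CXCL11 had differences of 0.10 ± 1.31 and 0.98 ± 0.93.

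The antigen processing genes PSMB8 and PSMB9, subunits of the immunoproteasome, and TAP1, a peptide transporter, had differences of 0.06 ± 0.25, -0.16 ± 0.26 and 0.05 ± 0.18. Among the nuclear and ADP-ribosylation genes, 3 of 5 were negative with a median of -0.07. IFI16, a sensor of nuclear DNA, was the steadiest of the members within WT-actin and NLS-actin cells, where the highest array exceeded the lowest 1.02-fold in each, and its difference was 0.04 ± 0.12. PARP9 and PARP14, partners in ADP-ribosylation, had differences of -0.43 ± 0.37 and -0.35 ± 0.27, and the nuclear body protein SP110 one of -0.07 ± 0.20. For TRIM22, an antiviral ubiquitin ligase, arrays of the WT-actin line spanned 8.17-fold and the difference was 0.03 ± 0.65.

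All 10 other induced proteins had a negative difference, with a median of -0.64. IFI44, a cytoplasmic protein known to limit viral growth, read 1596, 1778 and 1340 in parental cells, 1762, 943 and 990.5 in WT-actin cells and 892, 700.5 and 724 in NLS-actin cells. Each NLS-actin array lay below every array of both other lines. The log2 difference was -1.02 ± 0.24 against parental cells, with the smallest adjusted p of the 49 members, 0.184 (0.0024 with the block). EPSTI1, a gene first described in epithelial cells cultured with stroma, read 1064, 843 and 730 in parental cells, 975, 796 and 789 in WT-actin cells and 506, 446 and 648 in NLS-actin cells. The NLS-actin arrays were again below all others (-0.72 ± 0.21, adjusted p = 0.363, and 0.0634 with the block). The other EPSTI1 probe set had a difference of -0.16, and the mean of both gave -0.44.

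IFI27, a mitochondrial protein and one of the most inducible interferon genes, read 245, 1418 and 206 in parental cells, 499, 87.1 and 72.1 in WT-actin cells and 85.5, 404 and 47.6 in NLS-actin cells. The arrays of each line spanned 6.89-fold, 6.92-fold and 8.49-fold and the lines overlapped. The log2 difference between NLS-actin and parental cells was -1.81 ± 0.93 (adjusted p = 0.811), while the same-numbered arrays differed by -1.52, -1.81 and -2.11 (adjusted p = 0.000872 with the block). Without parental 2 the difference of IFI27 was -0.93, and without NLS-actin 3 it was -1.16. SAMD9L, a brake on translation, read 441, 703 and 373 in parental cells, 845, 370 and 235 in WT-actin cells and 249, 422 and 234 in NLS-actin cells. NLS-actin 2 lay between parental 3 and parental 1, and the difference was -0.75 ± 0.42 (adjusted p = 0.825, and 0.0470 with the block), or -0.48 without parental 2. Another SAMD9L probe set of similar brightness gave -0.42, and a dim one gave -1.06. The neighbour of SAMD9L on chromosome 7, SAMD9, differed by -0.02 ± 0.20. IFI44L, a dim paralog and neighbour of IFI44 on chromosome 1, had a difference of -1.83 ± 0.98, and IFI35 and XAF1 differed by -0.33 ± 0.45 and -0.48 ± 0.68. RSAD2, or viperin, which makes a chain-terminating nucleotide, and CMPK2, the nucleotide kinase encoded beside it on chromosome 2, had differences of -0.57 ± 0.32 and -0.47 ± 0.30.

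**Figure D2:**
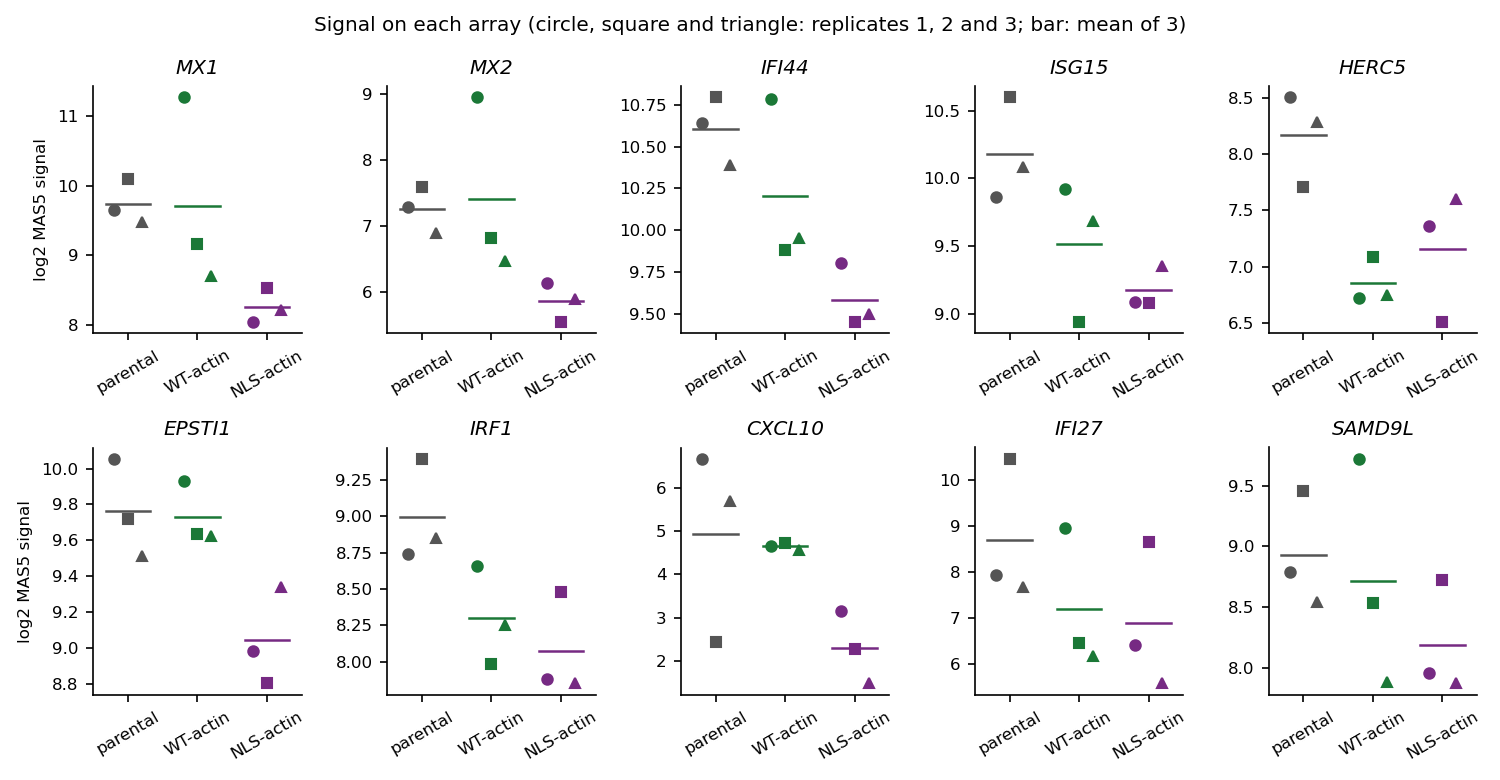
Log2 MAS5 signal of 10 members on each array, with circles, squares and triangles for replicates 1, 2 and 3, bars for the mean of 3 arrays and a separate vertical scale for each gene. The NLS-actin arrays lie below all others for MX1, MX2, IFI44 and EPSTI1, and the replicate 2 arrays of IFI27 and SAMD9L are the highest of the parental and NLS-actin lines.

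Read by replicate number, 28 of the 49 members were lower in NLS-actin than in parental cells on all 3 numbers, which held for 17.6% of all genes. The differences were close to each other for MX1 (-1.61, -1.57 and -1.28), IRF1 (-0.86, -0.91 and -1.0) and SAMD9L (-0.83, -0.74 and -0.67). They were far apart for CXCL10 (-3.52, -0.16 and -4.22), whose signal on parental 2 was the lowest of its line. Of the 24 members with more than 1 probe set, all probe sets had the same sign in 16, and 66 of the 83 probe sets were negative. No such shares were taken over all probe sets. The sign is uncertain for dim probe sets, such as 1 for GBP1 with a mean signal of 3.36.

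**Figure D3:**
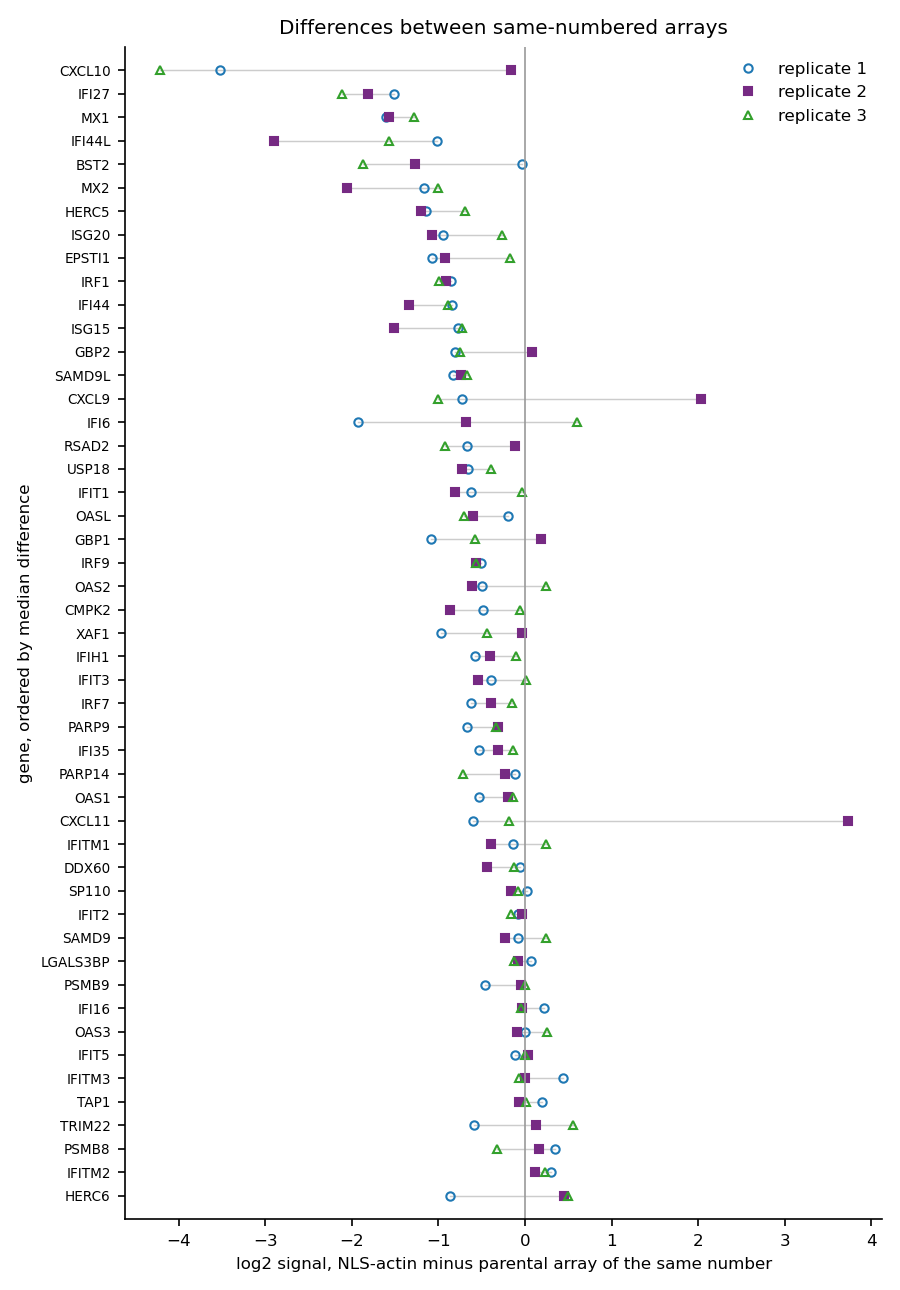
Log2 signal of NLS-actin minus parental arrays of the same replicate number for each of the 49 genes, ordered by the median of the 3 differences and joined by a grey line over their range. The 3 points lie together left of 0 for MX1, IRF1 and SAMD9L and are spread widely for the chemokines.

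The WT-actin line shows what expression of tagged actin without the localization sequence went with, and its comparison shares the parental arrays with the one above. In WT-actin against parental cells, 38 of 49 members had a negative difference, against 56.4% of all genes, with a median of -0.18 against -0.06 over all genes. Limma called 0 members at an adjusted p under 0.05, where 0.162% of all genes were called, and Tukey's test called 0. At an unadjusted p under 0.05, 5 members were lower (IRF1, IRF9, GBP1, ISG15 and HERC5), where 4.23% of all genes were lower, and 1, IFIT2, was higher, where 2.46% were. Every WT-actin array lay below every parental array in 3 members (IRF1, GBP1 and HERC5), a smaller share than the 7.65% of all genes, and above in 1 (IFIT2), against 4.69% of all genes. HERC5 had a log2 difference of -1.32 ± 0.34 (adjusted p = 0.291), beside -1.01 for NLS-actin cells, and IRF1 one of -0.70 ± 0.27, beside -0.92. The other IRF1 probe set gave -0.27 for WT-actin cells. GBP1 read 176, 94.99 and 140 in parental cells, 73.9, 77.3 and 73.3 in WT-actin cells and 83.3, 108 and 93.3 in NLS-actin cells, and the WT-actin difference was -0.83 ± 0.33 (adjusted p = 0.672). The mean of all GBP1 probe sets gave -0.41. For ISG15 the difference was -0.66 ± 0.26, and -0.38 without WT-actin 2. The difference was -0.03 ± 0.50 for MX1 and 0.15 ± 0.54 for MX2, and without WT-actin 1 it was -0.82 and -0.62. Single arrays moved the list as well: without WT-actin 1 the median was -0.58 and 19 members were lower at an unadjusted p under 0.05, where 5.06% of all genes were, without WT-actin 2 there were 2 such members and without parental 2 there were 3.

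NLS-actin and WT-actin cells were compared directly to set nuclear against untargeted actin. The difference was negative in 34 of 49 members, against 46.5% of all genes, with a median of -0.20 against 0.03 over all genes. Limma and Tukey's test called 0 members, where limma called 0.733% of all genes. At an unadjusted p under 0.05, 7 members were lower (IFIT1, IFIT2, MX1, MX2, CXCL10, IFI44 and EPSTI1) and 0 were higher, where 4.07% of all genes were lower and 5.42% higher. For 6 of these, all but IFIT1, every NLS-actin array lay below every WT-actin array, which held for 5.74% of all genes. For 4 others (GBP1, CXCL9, CXCL11 and IFI16) every NLS-actin array lay above, which held for 8.17% of all genes. EPSTI1 differed by -0.69 ± 0.21 (adjusted p = 0.220), MX1 by -1.45 ± 0.50 (adjusted p = 0.319) and MX2 by -1.56 ± 0.54 (adjusted p = 0.324). IFIT2, which read 6044, 5164 and 5891 in parental cells, 7052, 8381 and 6166 in WT-actin cells and 5711, 5042 and 5266 in NLS-actin cells, differed by -0.42 ± 0.14 (adjusted p = 0.288). Without WT-actin 1 the median turned to 0.13, 3 members were lower at an unadjusted p under 0.05, where 4.29% of all genes were, and MX1 and MX2 differed by -0.67 and -0.79.

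**Figure D4:**
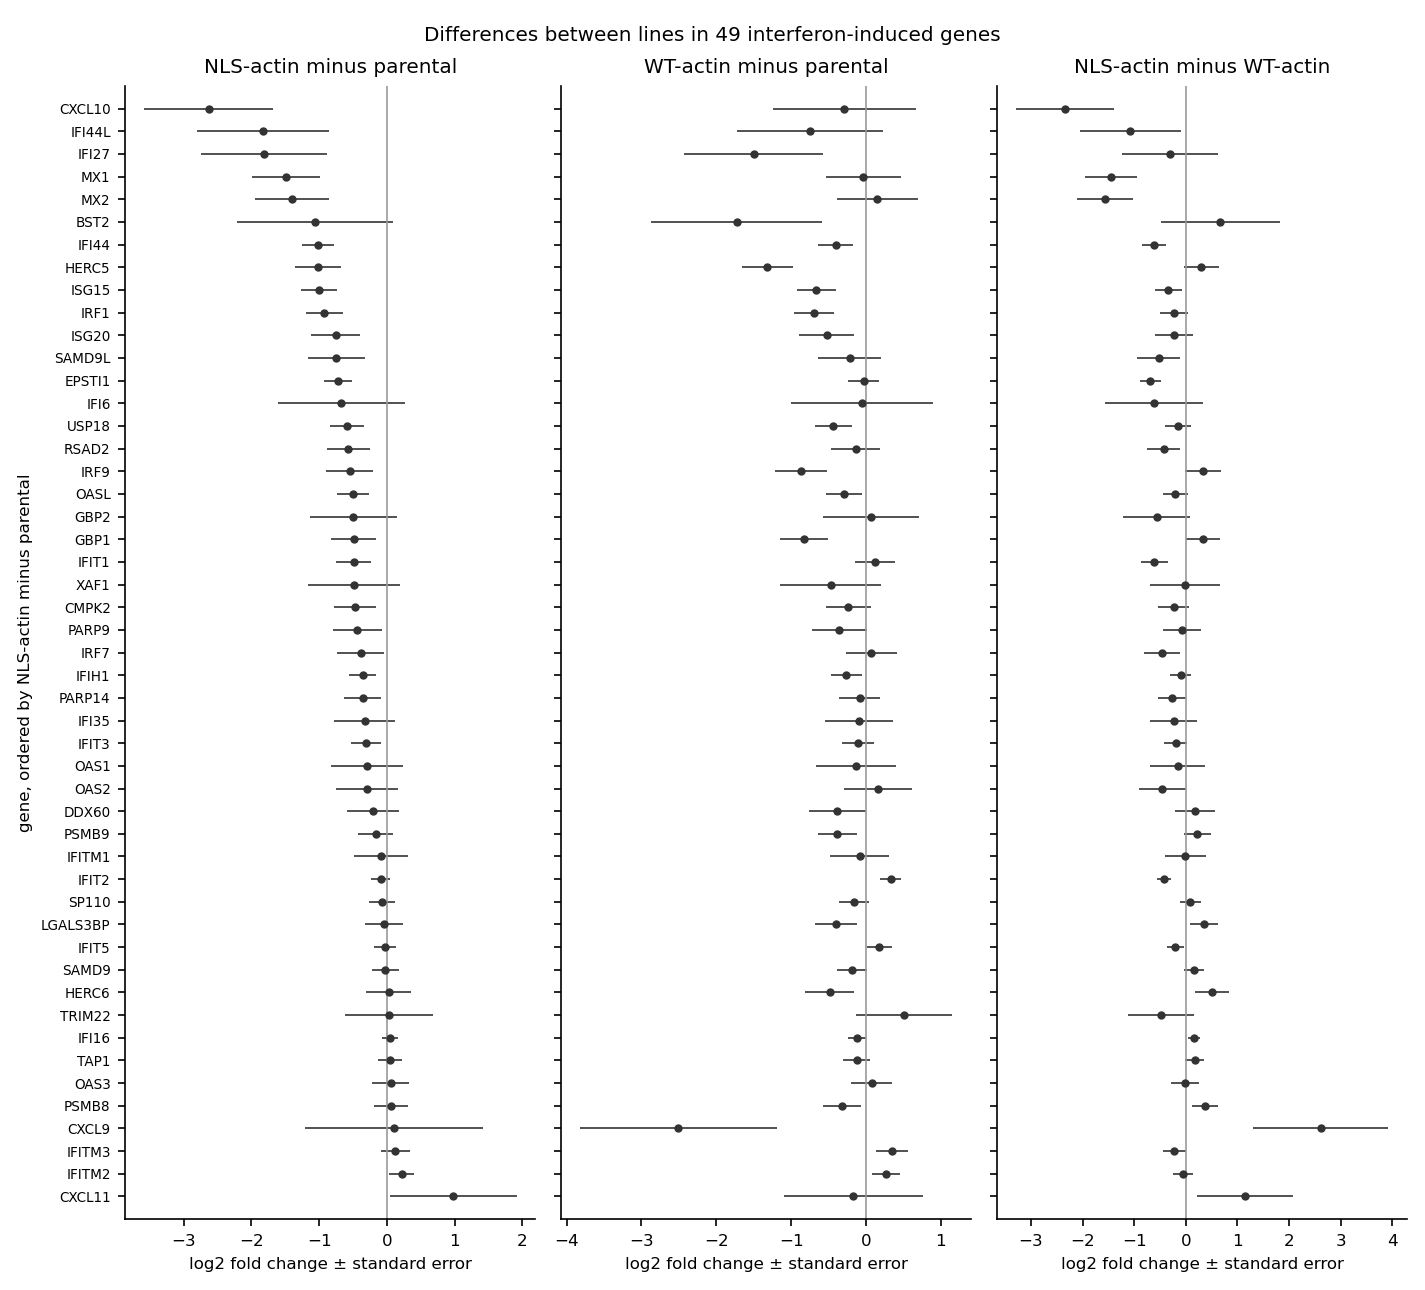
Log2 fold change with its standard error for the 49 genes in NLS-actin minus parental, WT-actin minus parental and NLS-actin minus WT-actin cells, in the order of the first comparison (n = 3 arrays per line). MX1, MX2, EPSTI1 and IFI44 lie left of 0 in the first and last panels, and HERC5 lies left of 0 in the first and second.

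Replicates of a line also differed in these genes. The array with the highest ACTB ratio of its line also had the highest signal of the line for many members. These were 35 members in parental cells (parental 2), 39 in WT-actin cells (WT-actin 1) and 31 in NLS-actin cells (NLS-actin 2). Of all genes, 40.2%, 41.3% and 44.0% were highest there. The median member lay 0.27, 0.55 and 0.20 above the mean of its line on these arrays on the log2 scale, and the median of all genes lay 0.05, 0.05 and 0.06 above. On all 3 of the arrays 27 members (55.1%) were the highest of the line, among them IRF7, IRF9, OAS1, MX1, IFI27 and XAF1, against 15.5% of all genes. IFIT5 and HERC5 were the lowest of the line on all 3, as were 9.20% of all genes. XAF1, a proapoptotic protein, read 1425, 1921 and 761 in parental cells, 3245, 648 and 373 in WT-actin cells and 729, 1874 and 559 in NLS-actin cells, and TRIM22 read 872, 1394 and 453, then 3065, 1387 and 375, then 581, 1522 and 666. For both genes the arrays of 1 line spanned more than the difference between any lines.

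After the mean of each line was taken off, the correlation between members had a median r of 0.46 over 1176 pairs, and 47.4% of pairs were above 0.5 while 10.03% were below -0.5. The 9 arrays with 6 residual degrees of freedom are shared by all pairs, as are their scaling and RNA quality, so that the values are descriptive. No such share was computed for other genes, so the values do not set the members apart from them. Over all genes above the median level, residuals of parental 2 correlated with those of NLS-actin 2 at 0.791 and of WT-actin 1 at 0.588. Against the median of the other members, 35 members had an r above 0.5 and 9 were below 0. IRF7 (0.98), OAS3 (0.98), SAMD9L (0.98) and IFITM1 (0.97) were nearest to it, and IFIT5 (-0.66), HERC5 (-0.57) and CXCL9 (-0.48) were farthest. The ACTB ratio is read from the gene of β-actin, which both constructs carry, and whether they moved the ratio was not tested. Its highest value was 7.96 in parental and 12.8 in NLS-actin cells, so a term for it may also take up differences between these lines. With the ACTB ratio as a covariate, MX1, IFI44 and SAMD9L fell in NLS-actin against parental cells at an adjusted p under 0.05 (0.00572, 0.0407 and 0.0407), where 0.273% of all genes fell. The median of the members in that fit was -0.68, against -0.39 without the covariate. In that fit 29 members were lower at an unadjusted p under 0.05, where 5.39% of all genes were. Without parental 2, WT-actin 1 and NLS-actin 2 together, that median was -0.39, MX1 was called (adjusted p = 0.0472), where 0.0961% of all genes fell, and 17 members were lower at an unadjusted p under 0.05, where 4.82% of all genes were.

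**Figure D5:**
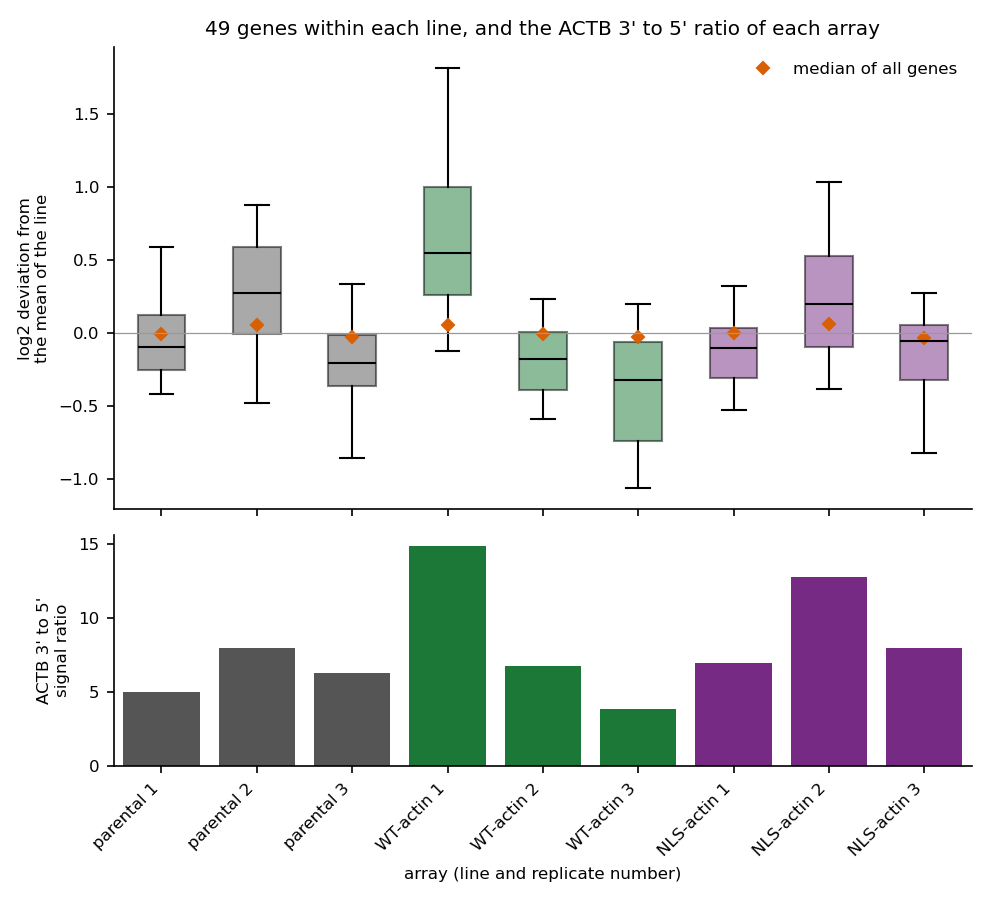
Upper panel, log2 deviation of the 49 genes from the mean of their line on each array (boxes: quartiles and median, whiskers: 5 and 95 percentiles), with the median of all 19775 genes as diamonds. Lower panel, ratio of 3′ to 5′ signal of the ACTB control probe sets on the same arrays, where parental 2, WT-actin 1 and NLS-actin 2 are the highest of their lines, at 7.96, 14.9 and 12.8.

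The rest of the pathway was read from 78 further genes, of which 70 were measured. Limma called 0 of them at an adjusted p under 0.05 in any comparison, and at an unadjusted p under 0.05, 5 were lower and 0 higher in NLS-actin against parental cells, 2 and 2 in WT-actin against parental cells, and 5 and 0 in NLS-actin against WT-actin cells. Of all genes, 3.98%, 4.23% and 4.07% were lower in these comparisons, and 2.45%, 2.46% and 5.42% were higher. The 8 measured interferon ligands all lay below the median level. All 6 receptor chains lay above it, with a median difference of -0.11 between NLS-actin and parental cells. The kinases JAK1, JAK2 and TYK2 had differences of -0.07, 0.00 and 0.07. With the replicate block, 4 of the 34 further interferon-induced genes in the list fell in NLS-actin against parental cells, where 1.2% of all genes fell: PARP12, an ADP-ribosyltransferase (-1.0, adjusted p = 0.000872), RTP4, a chaperone of membrane receptors (-1.24, adjusted p = 0.0116), TRIM25, the ubiquitin ligase of the RNA sensor RIG-I (-0.65, adjusted p = 0.0168), and CASP1, the inflammasome protease (-0.93, adjusted p = 0.0213). PARP12 read 2455, 3552 and 2580 in parental cells and 1334, 1573 and 1339 in NLS-actin cells, and these arrays did not overlap. The WT-actin arrays of PARP12 are not given here. In the limma fit without the block 0 of the 34 were called, and the adjusted p of TRIM25 was 0.200.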

How the data were processed

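RNA of 9 HaCaT samples was measured on whole-genome arrays. The authors deposited MAS5 signals, linear intensity values scaled to a common trimmed mean. The scaling target and the MAS5 version are not given in the sources used here. Signals were taken as log2 without offset or filter. Of 54613 probe sets other than controls, 41091 carried 1 gene symbol, updated through Entrez identifiers for 41037, which gave 19775 genes, each read from its brightest probe set on average. Another 2 probe sets shared by a member and another gene were left out. The 3 lines entered a limma fit (version 3.58.1, R 4.3.3, 1 mean per line, all 9 arrays, variance trend) with Benjamini-Hochberg adjustment over all genes. Every p-value with 3 arrays per line is from limma unless Tukey's test is named. An exact permutation of 3 against 3 cannot go below 0.1. The number of arrays limits the precision.

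The labels number the arrays 1 to 3 without saying what a number marks. Residuals of parental and NLS-actin arrays of the same number correlated at 0.234, 0.791 and 0.417, so they were treated as pairs, although parental 1 with NLS-actin 3 (0.334) and parental 3 with NLS-actin 1 (0.535) did as well or better. WT-actin arrays were not paired with the parental arrays (-0.0768, -0.356 and 0.515) or with the NLS-actin arrays (-0.598, -0.402 and 0.161).

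The members and lists were chosen with earlier results of these data known. Values of all arrays were given by rule for the 8 members with the smallest p in NLS-actin against parental cells, 4 in each other comparison, the 4 above the median level that spanned the arrays of 1 line most, and those called with the block. IRF9, USP18, IFIT1, OAS1 and PARP12 were added after their values were seen. Motifs were searched as letters on both strands of RefSeq promoter windows. Alternatives were quantile normalization, an offset of 8.08, a filter on dim genes, no variance trend, the mean of all probe sets, 2 lines only, omission of cross-hybridizing probe sets, the replicate block (within the paired lines and over all 9 arrays), the ACTB ratio in the fit, Tukey's test and omission of arrays. Only the fit without block or covariate was tested on simulated data. Its noise was independent between arrays, unlike the correlated residuals here, so the test does not cover the block or the ACTB ratio. Tables and figures used Python 3.11.15, pandas 2.3.3 and matplotlib 3.10.9.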

Additional observations from a re-analysis of the deposited data

How the results depend on the processing

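Every median of the members kept its sign under every alternative except that of NLS-actin against WT-actin cells without WT-actin 1. The replicate block moved the adjusted calls in NLS-actin against parental cells from 0 to 8 and the unadjusted ones from 9 to 25, and with numbers 1 and 3 exchanged (chosen after seeing the data) to 10 and 25, while the block over all 9 arrays gave 0 and 13. With the ACTB ratio in the fit there were 3 adjusted and 29 unadjusted calls in NLS-actin against parental cells. Of all genes, 0.273% and 5.39% fell at these thresholds. The same fit gave 13 unadjusted calls in WT-actin against parental cells, and 1 adjusted (MX1) and 15 unadjusted in NLS-actin against WT-actin cells. Whether the actin constructs moved this ratio was not tested. Tukey's test gave 4, 2 and 2 unadjusted calls in the 3 comparisons. The mean of all probe sets gave 14 in the first. A variance without trend gave 3 in the second and 3 in the third, and quantile normalization gave 2 in the second. Without parental 2, WT-actin 1 and NLS-actin 2 there were 1 adjusted (MX1) and 17 unadjusted calls in the first, 18 in the second and 3 in the third. Leaving out each array in turn gave 0 to 1 adjusted and 5 to 13 unadjusted calls in the first comparison (lowest without parental 1, highest without WT-actin 1), with medians of -0.57 to -0.19, 2 to 19 unadjusted in the second, with medians of -0.58 to -0.066, and 3 to 10 in the third, with medians of -0.32 to 0.13. The cause of these shifts was not tested. Beyond the shares given here and above, no share of all genes was taken for these counts. Such counts alone do not set the members apart from all genes. Detection calls were not used, so that dim members such as CXCL10, IFI44L and BST2 carry the least certain values, and a p above the threshold with 3 arrays per line does not show that lines were alike.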
